A study of Mus musculus with 30 samples.

Results

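The genes described here are 40 components of the machinery that builds ribosomes, a program that the transcription factor Myc is known to drive. They were taken from a fixed list of symbols, which was chosen with earlier results of these data known. Each was read from the probe set whose annotation holds that symbol alone, or from the brightest such probe set on average where there were several. All 40 were measured, among 19937 genes in the deposited table. By their known roles, 2 are subunits of RNA polymerase I and 3 belong to box C/D small nucleolar ribonucleoproteins (snoRNPs). Another 4 were grouped under box H/ACA snoRNPs, among them Nolc1, which is a snoRNP chaperone. A further 14 act on the small ribosomal subunit, 13 on the large subunit, and 4 are multifunctional nucleolar proteins.

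Expression was measured on 30 arrays of 1 lymphoma line and its drug-resistant derivatives. All groups carried the genotype Eµ-Myc; Cdkn2a-/- on a C57BL/6J background and were grown with irradiated Cdkn2a-/- mouse embryonic fibroblasts as feeder cells. The Eµ-Myc transgene places Myc under the immunoglobulin heavy chain enhancer, which restricts it to the B lineage, and Cdkn2a encodes tumor suppressors that restrain Myc-driven growth. Parental cells were sampled before treatment (0 h, 5 arrays) and after 6, 12, 24 and 48 h in 750 nM mafosfamide, an alkylating agent related to cyclophosphamide (4, 4, 5 and 5 arrays). The resistant lines R100, R500, R1000 and R4000 are named for mafosfamide concentrations in nM. All 4 lines have 1 array of untreated cells, and the 3 named for 500 nM or more have a second array of cells held for 24 h in 750 nM mafosfamide. They are steps of one dose escalation from the parental line and not independent derivations. Feeder transcripts were present on the arrays, and in such bulk samples fewer cells of a type and less RNA per cell cannot be told apart.

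Ribosome synthesis starts in the nucleolus, where RNA polymerase I transcribes the precursor of the ribosomal RNAs. SnoRNPs guide the chemical modification of that precursor, and a long series of assembly factors folds and cleaves it while ribosomal proteins are added, along separate routes for the small and large subunits. Myc binds many of these genes at E-box motifs close to the transcription start and raises their transcription, and in B-cell lymphomas driven by Myc the nucleolus is large.

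To show the elements through which Myc can bind, the canonical E-box CACGTG, which is its own reverse complement, was searched in RefSeq promoter windows of build GRCm38.p6, from 250 bases before to 50 bases after an annotated start. Such a window was given for 35 of the 40 genes, all but Rrs1, Fbl, Bop1, Rrp12 and Npm1. CACGTG stood in 10 of the 35 (28.6%), against 8.09% of the 27025 windows of all genes and 9.5% of the 15613 windows of genes tested here. The related motif CACGCG, searched on both strands, stood in 7 of 35 (20.0%) and in 10.5% of all windows (14.9% of those of the genes tested). Of the 10 genes with CACGTG, 9 held it 2 to 40 bases after the start of their window's transcript and Nop2 held it 60 bases before. The sequences below are those of 5 genes whose values recur in the results, printed 5′ to 3′ along the gene's strand with the E-box in capitals. They lie at chr7:45830740-45830769 on the minus strand (Grwd1), chr6:125131811-125131840 on the plus strand (Nop2), chr10:88826765-88826794 on the minus strand (Utp20), chr11:3963965-3963994 on the plus strand (Pes1) and chr11:82908355-82908384 on the minus strand (Nle1).
Grwd1: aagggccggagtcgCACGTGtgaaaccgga
Nop2: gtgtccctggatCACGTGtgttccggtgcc
Utp20: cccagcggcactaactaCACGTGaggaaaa
Pes1: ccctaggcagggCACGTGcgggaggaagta
Nle1: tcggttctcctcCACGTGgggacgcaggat
The bases around the motif differ among the 5 windows. A match to these letters is a description of the sequence and not evidence of binding in these cells.

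Before the comparisons, the arrays were checked against their labels. The 11 measured B-lineage markers averaged between 11.51 and 12.09 log2 units on all 30 arrays, and the T and NK cell, myeloid and erythroid lists averaged at most 6.47, 6.88 and 7.23. Feeder fibroblast transcripts varied more. The mean of 28 fibroblast markers lay between 8.19 and 8.70 at 0 h, between 8.43 and 9.94 at 24 h and between 8.09 and 9.25 at 48 h, and 14 of the 28 were called higher at 24 h. One array differed from the rest in its spread of values, the fifth at 0 h, whose interquartile range over all probe sets was 3.07 log2 units against 3.34 to 3.64 elsewhere. It is kept below, and several results are also given without it.

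Myc itself lay between 12.97 and 13.30 log2 units on every array. Its mean was 13.13 ± 0.10 (SD, n = 5) at 0 h, 13.09 ± 0.09 (n = 4) at 6 h, 13.07 ± 0.03 (n = 4) at 12 h, 13.07 ± 0.03 (n = 5) at 24 h and 13.06 ± 0.08 (n = 5) at 48 h. The untreated lines stood at 13.24, 13.10, 13.19 and 13.16 in the order R100, R500, R1000 and R4000, and treated R500, R1000 and R4000 at 13.18, 13.16 and 13.30. No comparison called Myc in limma, and the log2 differences ran from -0.08 at 48 h to 0.12 for the difference between the responses of resistant and parental cells.

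The 40 genes were first averaged on each array. The parental 0 h arrays gave means of 11.56, 11.46, 11.43, 11.49 and 11.29 log2 units, of which the fifth array was the lowest. Over the 23 parental arrays the mean ranged from 11.27, on the first 12 h array, to 11.59, on a 24 h array. The untreated lines gave 11.61 (R100), 11.65 (R500), 11.67 (R1000) and 11.64 (R4000), and treated R500, R1000 and R4000 gave 11.68, 11.66 and 11.64. All 7 resistant arrays therefore lay above all 23 parental arrays in this mean. Related lists did not share that order. The mean of 99 further ribosome biogenesis genes was 10.88 to 10.96 on the 7 resistant arrays, and higher, 10.97, on the first parental 0 h array. The mean of the ribosomal protein genes was 12.17 to 12.26 on the untreated lines, within the parental range of 12.08 to 12.35.

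**Figure D1:**
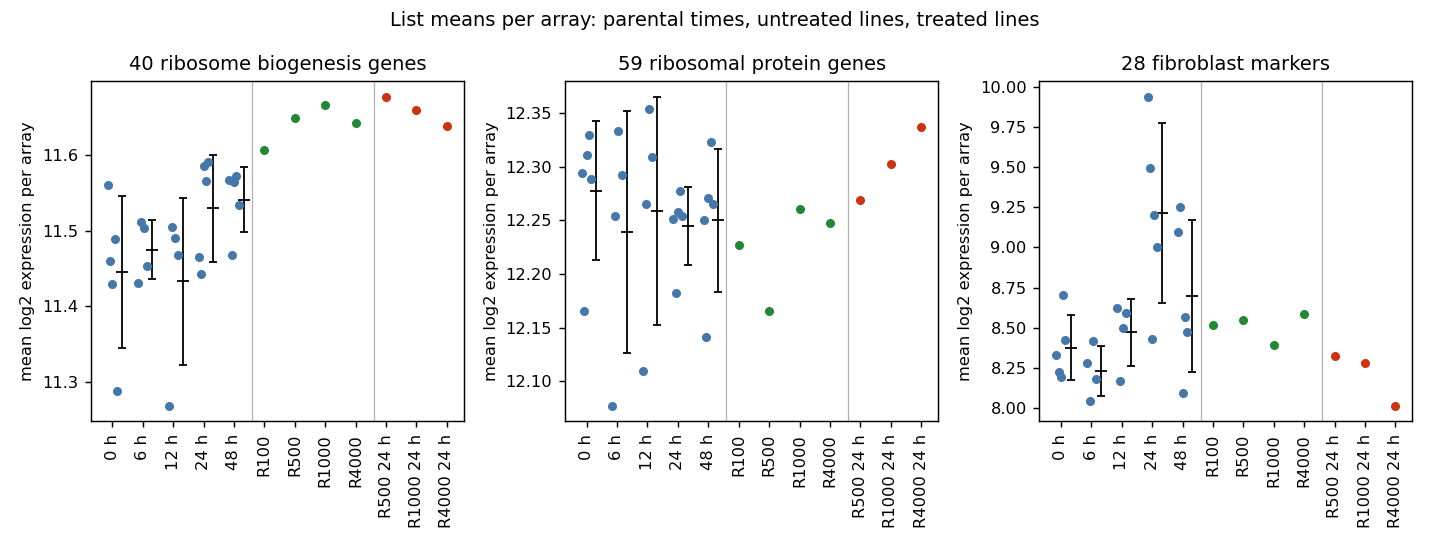
Mean log2 expression per array of the 40 ribosome biogenesis genes, 59 ribosomal protein genes and 28 fibroblast markers, with 1 point per array for parental times (blue), untreated lines (green) and treated lines (red), and black marks for the mean ± SD of the parental groups. The 7 resistant arrays lie between 11.61 and 11.68 in the first panel, above every parental array, while in the ribosomal protein panel the untreated lines (12.17 to 12.26) lie within the parental range.

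The genes also varied together among parental cultures. Over the 23 parental arrays, the correlation of a member with the mean of the other members had a median of r = 0.67, and it exceeded 0.5 for 31 of 40. Over all genes the median correlation with the member mean was -0.08. It was highest for Grwd1 (0.95) and Wdr75 (0.93) and lowest for both RNA polymerase I subunits, Polr1b (-0.02) and Polr1a (0.04), followed by Npm1 (0.09). These points share arrays, normalization and time of treatment, and the values are descriptive. The fifth 0 h array (11.29) and the first 12 h array (11.27), lowest in the member mean, are included, and no correlation is given without them. All genes were not matched to the members in expression level. The median SD within a parental group was 0.11 log2 units for members and 0.15 for all genes.

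To determine whether ribosome biogenesis genes responded to mafosfamide in parental cells, each time was compared with 0 h by limma. These comparisons share the 0 h arrays. At 6 h no member was called (0.0201% of all genes were), 1 of 40 was higher and none lower at an unadjusted p under 0.05 (3.29% and 1.84% of all genes), and 25 of 40 differences were above 0, against 45.2% of all genes. The median log2 difference was 0.02, and it was -0.01 without the fifth 0 h array. The members furthest from 0 were Noc3l (0.19), Nop2 (0.16), Ltv1 (-0.15) and Grwd1 (0.13), and the smallest adjusted p was 0.928. The 95% intervals of all 40 members lay within 0.5 log2 units of 0.

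At 12 h no member was called either (0.512% of all genes were), 1 of 40 was higher and none lower at an unadjusted p under 0.05 (6.91% and 5.02% of all genes), and 18 of 40 differences were above 0 (42.8% of all genes), with a median of -0.01. Utp20, a large scaffold protein of the small-subunit processome, read 10.34, 10.38, 10.35, 10.42 and 9.95 at 0 h and 10.45, 10.59, 10.51 and 10.51 at 12 h. Its 12 h arrays all lay above its 0 h arrays, as was the case for 1.71% of all genes and no other member. The difference was 0.23 (SE 0.09, limma adjusted p = 0.33), and it was 0.14 without the fifth 0 h array. Noc3l (0.17), the late small-subunit factor Ltv1 (-0.16) and the H/ACA protein Gar1 (-0.16) followed. The first 12 h array had the lowest member mean of all, and the median was 0.06 without it. All 40 intervals again lay within 0.5 log2 units of 0.

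At 24 h, 1 member was called, Noc3l, which was higher. Of all genes, 6.78% were called, 4.35% higher and 2.43% lower. Noc3l encodes a nucleolar factor needed for maturation and transport of large-subunit precursors. It read 10.84, 10.69, 10.37, 10.60 and 10.19 at 0 h and 10.66, 10.84, 10.93, 11.02 and 10.97 at 24 h. Its lowest 24 h array lay within the 0 h values and the other 4 above the highest 0 h array. Noc3l rose 1.27-fold, by 0.35 on the log2 scale (SE 0.09, 95% interval 0.16 to 0.54, limma adjusted p = 0.0285). The call was lost without the third 0 h array (adjusted p = 0.0753), the fifth 0 h array (0.0718), the fourth 24 h array (0.0641) or the fifth 24 h array (0.0535), and also after centring arrays on their median (0.0543) or with these 2 groups fitted alone (0.183). Without the fifth 0 h array the difference was 0.26.

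The next largest differences at 24 h were not called in the fit reported, and for each the call depended on the setting. Nop2, a methyltransferase of large-subunit ribosomal RNA, read 12.43, 12.37, 12.25, 12.29 and 12.25 at 0 h and 12.52, 12.33, 12.60, 12.60 and 12.64 at 24 h, and only its second 24 h array lay among the 0 h values. The log2 difference of Nop2 was 0.22 (SE 0.07, adjusted p = 0.0545). Utp20 read 10.30, 10.49, 10.65, 10.59 and 10.62 at 24 h, with its first array below 4 of the 5 values at 0 h given above. Its difference was 0.24 (SE 0.08, adjusted p = 0.0716). With array weights, limma called both Nop2 (adjusted p = 0.019) and Utp20 (0.038). Nop2 was also called with dim genes left out (0.0425) and without the first 0 h array (0.0339) or the second 24 h array (0.0281), and Utp20 without the fourth 0 h array (0.0418) or the first 24 h array (0.041). Without the fifth 0 h array the difference of Utp20 was 0.16. Over all settings the limma adjusted p ran from 0.0177 to 0.189 for Nop2 and from 0.0296 to 0.237 for Utp20. Nhp2, a core H/ACA protein, read 11.29, 11.06, 11.56, 11.51 and 11.71 at 0 h and 11.33, 11.27, 11.86, 11.85 and 11.88 at 24 h. Its groups overlapped widely, with a difference of 0.21 (95% interval -0.13 to 0.55, adjusted p = 0.383). Each 24 h array of Nhp2 read above the 0 h array with the same number in the sample descriptions. With a replicate block on that number, limma called Nhp2 (adjusted p = 0.021), Noc3l, Nop2 and Utp20. No label says what those numbers mark, and they were not taken to pair the samples. Same-numbered arrays did correlate more than others, and the fit reported leaves this out.

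Of the 40 members, 34 were above 0 at 24 h, against 42.9% of all genes, with a median of 0.08 against -0.04 for all genes. An unadjusted p under 0.05 in the higher direction was found for 8 (12.4% of all genes), namely Noc3l, Nop2, Utp20, Polr1a, Heatr1, Tsr1, Rrp1b and Wdr12, and in the lower direction for none (17.1% of all genes). The 8 became 5 when the third 0 h array was left out, and 3 when the fifth 0 h array, the third 24 h array or the fifth 24 h array was, and the median became 0.05 without the fifth 0 h array. By role, 13 of 14 small-subunit factors, 10 of 13 large-subunit factors, 4 of 4 multifunctional proteins, 3 of 4 H/ACA and 2 of 3 C/D proteins and both polymerase subunits were above 0. No member's 24 h arrays all lay outside its 0 h range, as those of 1.98% of genes did above it and 2.6% below it. The fibroblast markers were higher on the same arrays, with a median log2 difference of 0.86 over 28. With the fibroblast mean of each array as a covariate, 2 members were called, Noc3l and Nop2, and the median was 0.15. The share of all genes called in that fit is not given here.

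At 48 h no member was called (0.251% of all genes were), the smallest adjusted p was 0.321, and 38 of 40 were above 0 (43.9% of all genes), with a median of 0.09. An unadjusted p under 0.05 was found for 6, all higher (5.23% of all genes were higher and 6.44% lower), and for 1 without the fifth 0 h array and 14 without the first. The count was 3 without the first 48 h array, 4 if the third or the fourth 48 h array or the third 0 h array was left out, and 9 without the second 0 h array. The fibroblast markers had a median difference of 0.35 at 48 h, and their part in these values was not tested. Noc3l (0.23), Rrp1b (0.20), Grwd1 (0.19) and Nop2 (0.19) were furthest from 0. Without the fifth 0 h array, Noc3l, Rrp1b and Grwd1 differed by 0.15, 0.13 and 0.12 at 48 h, and the median of the members was 0.07. Between 24 h and 48 h, a comparison that uses no 0 h array, no member was called (0.105% of all genes were), none had an unadjusted p under 0.05 (2.38% of all genes were higher and 4.38% lower), 24 of 40 were above 0 (56.8% of all genes), and the smallest adjusted p was 0.831. The differences furthest from 0 were those of Nhp2 (-0.21), Noc3l (-0.12), Rrp12 (0.11) and Polr1a (-0.10), and 39 of 40 intervals lay within 0.5 log2 units of 0.

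Across the parental course, the range of a member's 5 time means had a median of 0.15 log2 units, from 0.08 for Nop58 to 0.35 for Noc3l. These ranges use 1 probe set per gene. A separate, dimmer probe set of Wdr12 differed from 0 h by 0.38 at 24 h and 0.31 at 48 h, against 0.18 and 0.15 for the one used. The separate probe sets of Fbl and Ddx18 gave -0.04 and -0.0035 at 24 h. Best known of the set, nucleolin (Ncl) averaged 13.28 ± 0.10, 13.29 ± 0.18, 13.20 ± 0.10, 13.32 ± 0.07 and 13.29 ± 0.05 at the 5 times (SD, n = 5, 4, 4, 5 and 5). Nucleophosmin (Npm1), a chaperone of ribosomal proteins and histones, averaged 12.76 ± 0.07, 12.71 ± 0.15, 12.65 ± 0.08, 12.78 ± 0.05 and 12.81 ± 0.09. Neither was called at any time (smallest limma adjusted p = 0.501).

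Proteins of the snoRNPs and of RNA polymerase I were not called either. Fibrillarin (Fbl), the methyltransferase of box C/D particles, averaged 12.42 ± 0.23, 12.31 ± 0.14, 12.27 ± 0.06, 12.34 ± 0.10 and 12.40 ± 0.19, and its partner Nop56 13.01 ± 0.13, 13.10 ± 0.02, 13.04 ± 0.08, 13.07 ± 0.04 and 13.12 ± 0.02. Dyskerin (Dkc1), the pseudouridine synthase of box H/ACA particles, averaged 12.07 ± 0.15, 12.07 ± 0.04, 12.00 ± 0.04, 12.01 ± 0.09 and 12.11 ± 0.05. Polr1b, the second largest subunit of RNA polymerase I, averaged 11.98 ± 0.23, 12.07 ± 0.17, 12.04 ± 0.08, 12.02 ± 0.09 and 12.10 ± 0.09. For these 4 genes the smallest limma adjusted p at any time was 0.431, and their parental arrays overlapped at all times.

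**Figure D2:**
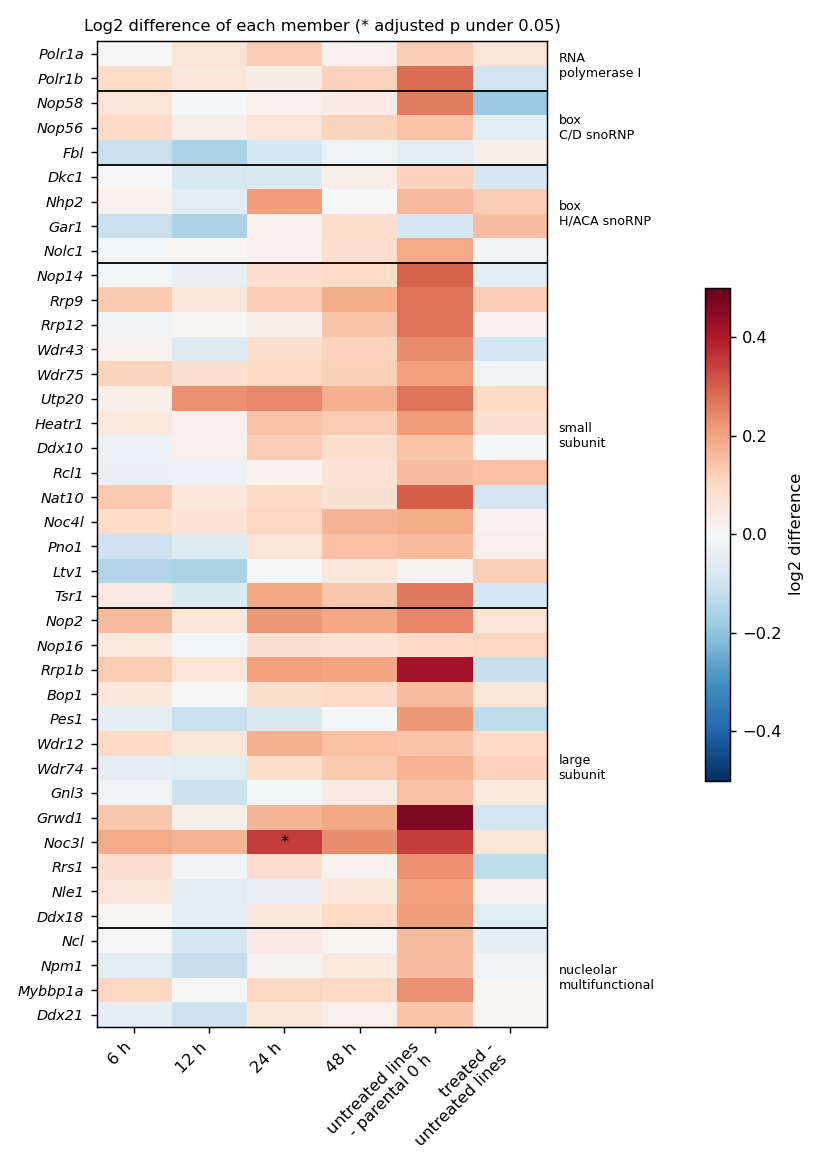
Log2 difference of each of the 40 genes (rows, grouped by role) for parental cells at 6, 12, 24 and 48 h against 0 h, untreated lines against parental 0 h, and treated against untreated lines (columns), in color from -0.5 (blue) to 0.5 (red). The asterisk marks Noc3l at 24 h, the single difference with a limma adjusted p under 0.05, and the fifth column is above 0 for 38 of 40 genes.

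To determine whether the level differed in resistant cells before drug, the 4 untreated lines were compared with the 5 parental 0 h arrays. No member was called by limma (0.0752% of all genes were, 0.0201% higher and 0.0552% lower), and the smallest adjusted p was 0.126. At an unadjusted p under 0.05, 19 of 40 were higher and none lower, against 4.18% and 2.92% of all genes. The lines lay entirely above the parental 0 h arrays for 20 members and entirely below for none, against 2.32% and 1.33% of all genes. In all, 38 of 40 differences were above 0 (48% of all genes), with a median of 0.19, a 1.14-fold difference, against -0.01 for all genes. Without the fifth 0 h array the median was 0.17 and the lines lay above the 4 remaining arrays for 20 members (3.05% of all genes). The 19 became 12 without R1000. The lines' fibroblast marker means, 8.39 to 8.58, lay within the parental 0 h range.

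The largest difference was that of Grwd1, a nucleolar WD-repeat protein that works in large-subunit assembly and also binds histones, and whose promoter window holds the E-box printed above. Grwd1 read 10.40, 10.28, 10.26, 10.31 and 9.95 on the parental 0 h arrays and 10.64, 10.67, 10.79 and 10.70 in R100, R500, R1000 and R4000. All 4 lines lay above the parental 0 h arrays, and also above the highest of all 23 parental arrays, 10.54 at 48 h. The difference was 0.46 on the log2 scale, 1.38-fold (SE 0.10, 95% interval 0.25 to 0.67, limma adjusted p = 0.126). It was 0.39 without the fifth 0 h array. When the spread was estimated over all 30 arrays, an alternative added after the values were seen, limma called Grwd1 (adjusted p = 0.0467), Rrp1b (0.0315) and Nat10 (0.0467). The share of all genes called in that fit is not given here, so these calls do not set the members apart.

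Rrp1b, a nucleolar protein of the large-subunit route that also takes part in transcription, read 11.21, 11.52, 11.12, 11.17 and 10.90 at 0 h and 11.56, 11.71, 11.59 and 11.55 in the lines. The lines lay just above the highest parental array, the second, and the difference was 0.42 (SE 0.11, limma adjusted p = 0.322). Without the fifth 0 h array the difference of Rrp1b was 0.35. Noc3l read 10.89, 10.91, 10.85 and 10.87 in the lines, above its parental 0 h arrays (highest 10.84) but within its 24 h values, with a difference of 0.34 (SE 0.12, adjusted p = 0.55). It was 0.26 without the fifth 0 h array. Nat10, which acetylates small-subunit ribosomal RNA, read 11.09, 11.03, 11.09, 11.14 and 10.89 at 0 h and 11.30, 11.34, 11.38 and 11.39 in the lines. Here the groups were separated by more than the range of the lines, with a difference of 0.30 (SE 0.08, adjusted p = 0.253).

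**Figure D3:**
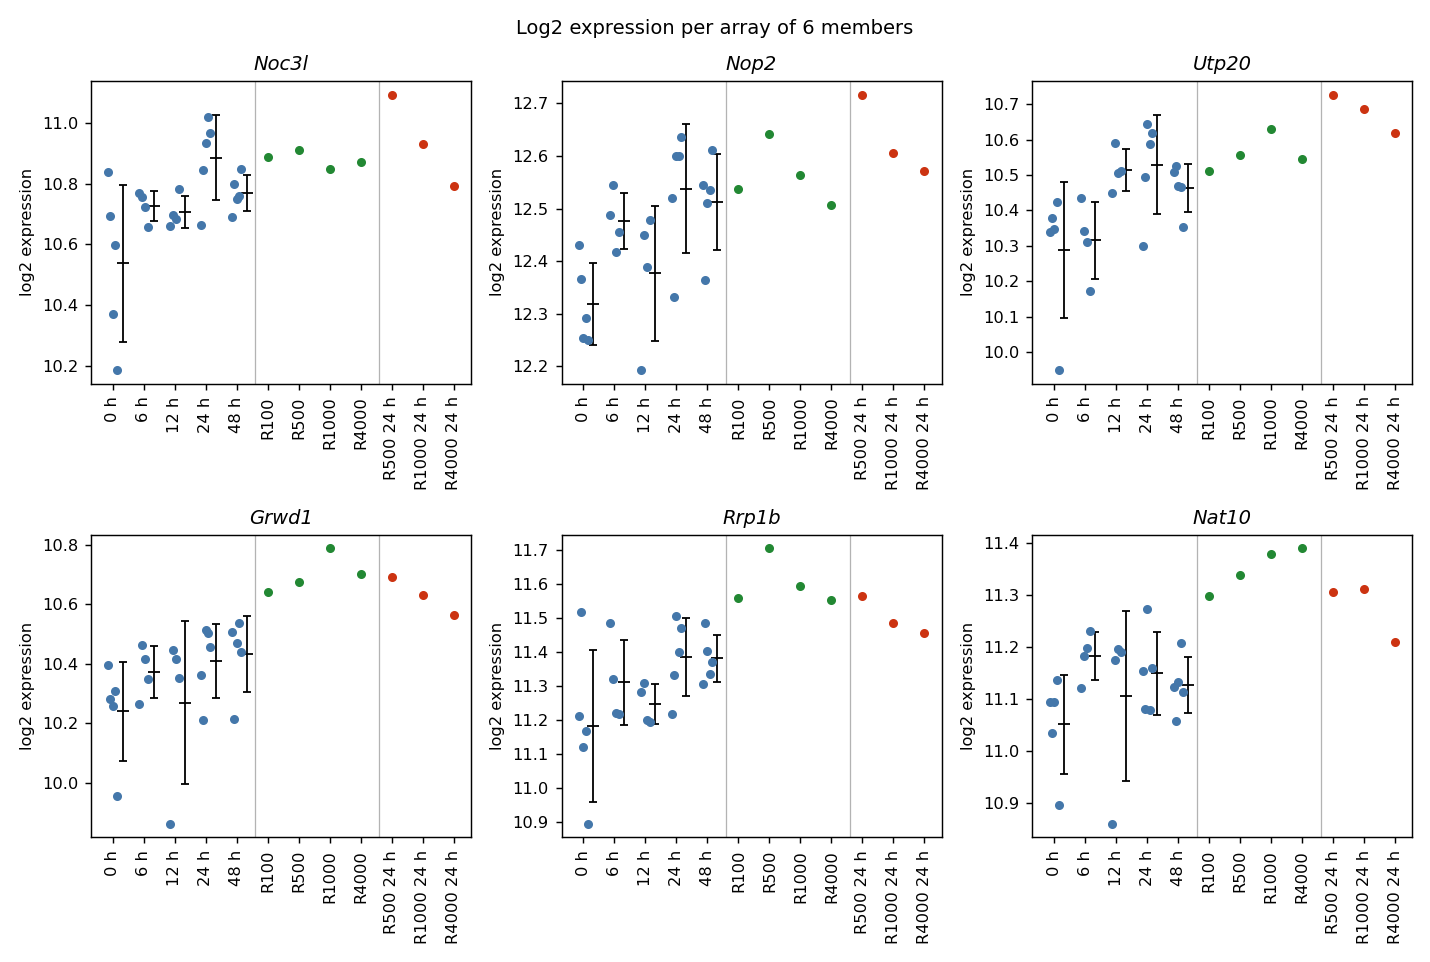
Log2 expression on each array (points) of Noc3l, Nop2, Utp20, Grwd1, Rrp1b and Nat10 in parental cells by time (blue, with mean ± SD), untreated lines (green) and lines treated for 24 h (red). Grwd1 is above every parental array in all 7 resistant arrays, whereas Noc3l in the lines (10.79 to 11.09) overlaps its parental 24 h values (10.66 to 11.02).

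By role, the lines lay above all parental 0 h arrays for 8 of 14 small-subunit factors and 8 of 13 large-subunit factors. The same held for 2 of 4 multifunctional proteins, 1 of 3 C/D proteins, 1 of the 4 grouped as H/ACA (the chaperone Nolc1) and neither polymerase subunit. The small-subunit factors were Nat10, Utp20, Heatr1, Wdr43, Wdr75, Nop14, Rrp9 and Rrp12, of which Utp20, Heatr1, Wdr43 and Wdr75 are components of the processome that forms on the nascent precursor and Rrp9 is part of the U3 snoRNP within it. Their log2 differences ran from 0.21 (Wdr75 and Heatr1) to 0.30 (Nat10). The large-subunit factors were Grwd1, Rrp1b, Noc3l, Nop2, Pes1, Nle1, Wdr74 and Gnl3, from 0.15 (Gnl3, nucleostemin) to 0.46. Pes1 works in 1 complex with Bop1 and Wdr12. Pes1 differed by 0.22, Bop1 by 0.16 and Wdr12 by 0.14, and the lines overlapped the parental arrays for Bop1 and Wdr12. A separate probe set of Wdr12 gave 0.34.

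Among snoRNP proteins, Nop58 (0.26) and the snoRNP chaperone Nolc1 (0.19) were separated from the parental arrays. Fbl and Gar1 were the 2 members below 0. Fbl read 12.81, 12.45, 12.28, 12.35 and 12.23 at 0 h and 12.27, 12.34, 12.31 and 12.55 in the lines, a difference of -0.06 (95% interval -0.32 to 0.21), and a separate probe set of Fbl gave 0.06. Gar1 differed by -0.09 (95% interval -0.42 to 0.25), with its first 0 h array, 12.56, above all 4 lines. Nop56 differed by 0.14 (adjusted p = 0.815), Dkc1 by 0.12 (0.884) and Polr1b by 0.28 (0.616). Polr1b read 12.28, 12.25, 12.26 and 12.25 in the lines, all below its second 0 h array, 12.29.

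Of the multifunctional proteins, Mybbp1a, a Myb-binding protein of the nucleolus (0.23), and the RNA helicase Ddx21 (0.14) were separated. Ncl read 13.50, 13.44, 13.51 and 13.33 in the lines against 13.17, 13.21, 13.43, 13.34 and 13.27 at 0 h, a difference of 0.16 (adjusted p = 0.758) with R4000 below the highest parental array. Npm1 read 13.03, 12.90, 13.02 and 12.73 against 12.84, 12.70, 12.84, 12.74 and 12.71, a difference of 0.15 (adjusted p = 0.795), and R4000 again lay among the parental arrays.

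**Figure D4:**
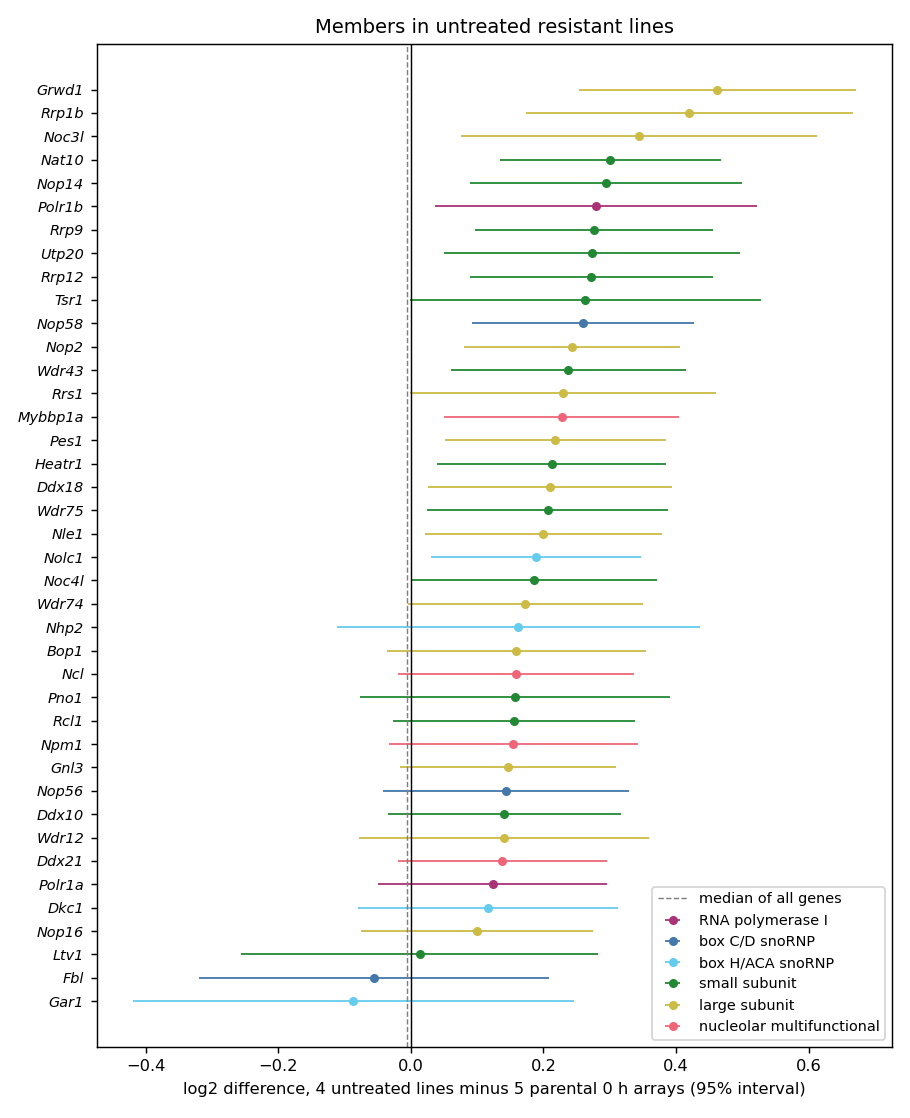
Log2 difference between the 4 untreated lines and the 5 parental 0 h arrays for each of the 40 genes (points, ordered by size and colored by role) with 95% intervals from limma. Intervals of 19 genes lie wholly above 0 and none wholly below, from Grwd1 at 0.46 to Gar1 at -0.09, and the dashed line marks the median of all genes, -0.01.

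Each line taken alone placed 36 (R100), 39 (R500), 38 (R1000) and 38 (R4000) of the 40 members above the parental 0 h mean, with medians of 0.16, 0.18, 0.23 and 0.20. The lines R100 and R4000 each had 25 members above all 5 parental 0 h arrays, R1000 had 29 and R500 30, where 10.8% to 11.6% of all genes were. With 1 array per line, the lines were not compared with each other. Against all 23 parental arrays, treated or not, the 4 untreated lines were all higher for 8 members, Nop58, Nolc1, Nop14, Rrp12, Nat10, Rrp1b, Pes1 and Grwd1 (0.341% of all genes), and all 7 resistant arrays were higher for Nop14, Rrp12 and Grwd1 (0.0903%). These counts were made after the values were seen.

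Further lists of the pathway were described in the same comparison. Of 99 further ribosome biogenesis genes, 89 were above 0 in the untreated lines (48% of all genes), with a median of 0.17. None was called (smallest adjusted p = 0.227), and 26 were higher and 1 lower at an unadjusted p under 0.05 (4.18% and 2.92% of all genes). The lines were entirely above the parental arrays for 12 and entirely below for 1 (2.32% and 1.33% of all genes). The 4 with the smallest p, picked after their values were seen, were Mrto4 (0.44, adjusted p = 0.227), which acts on the large subunit, and Pdcd11 (0.47, 0.278), Mphosph10 (0.40, 0.357) and Nol10 (0.43, 0.403), which act on the small subunit. Of 59 ribosomal protein genes, 16 were above 0, with a median of -0.05. For these genes the lines were entirely above the parental arrays for 1 and entirely below for 4, against the same 2.32% and 1.33% of all genes. At 24 h in parental cells, 3 of the 99 were called, all higher, a smaller share than the 4.35% of all genes called higher, so the count does not set the list apart. They were Mdn1, an ATPase that strips assembly factors from large-subunit precursors (0.55, adjusted p = 0.0157), the ATPase Nvl (0.22, 0.041) and Nol10 (0.33, 0.0427). The next by p was Rrn3, an RNA polymerase I initiation factor, at 0.29 (0.0578).

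**Figure D5:**
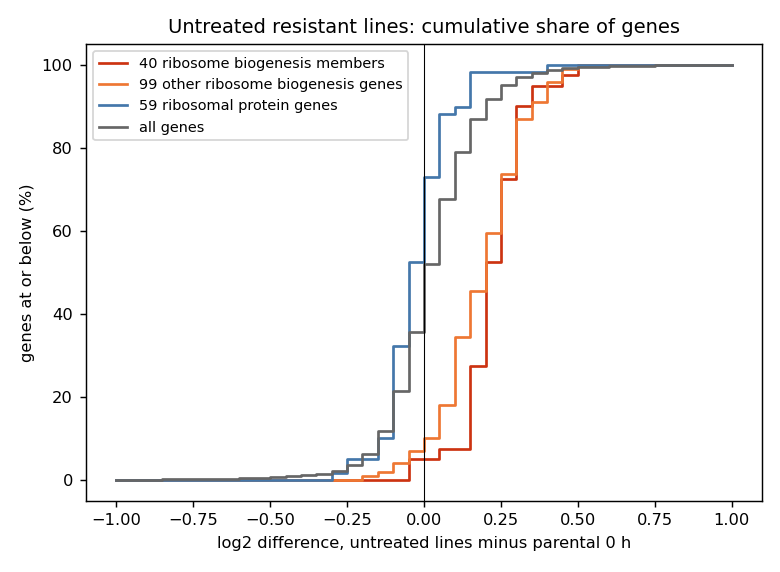
Percentage of genes at or below each log2 difference between untreated lines and parental 0 h arrays, in steps of 0.05, for the 40 members (red), 99 other ribosome biogenesis genes (orange), 59 ribosomal protein genes (blue) and all genes (gray). The curves of both ribosome biogenesis lists lie to the right of that of all genes, with medians of 0.19 and 0.17 against -0.01, and the ribosomal protein curve lies to the left with a median of -0.05.

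The change on treatment within R500, R1000 and R4000 was then tested, with each line as its own control. No member was called (0.0301% of all genes were), none had an unadjusted p under 0.05 in limma (1.41% of all genes were higher and 1.49% lower), and 22 of 40 were above 0 (43.2% of all genes), with a median of 0.01. The median was -0.01 without R500. All 3 lines moved up together for 10 members and down together for 11 (14.5% and 21.5% of all genes). Nop58 was furthest from 0, at 12.23, 12.34 and 12.28 untreated and 12.08, 12.16 and 12.06 treated in R500, R1000 and R4000. All treated values of Nop58 lay below all untreated ones, with a difference of -0.18 (95% interval -0.38 to 0.02, adjusted p = 1).

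Gar1 (0.15), Rcl1, a processome component (0.15), and Pes1 (-0.13) followed. Rcl1 was higher after treatment in each line, by 0.11, 0.02 and 0.31, and Pes1 changed by -0.16, -0.05 and -0.17 in R500, R1000 and R4000. Gar1 changed by -0.05, 0.22 and 0.29, with R500 opposite to the other lines. The treated lines read 13.44, 13.40 and 13.30 for Ncl, 12.90, 12.81 and 12.86 for Npm1, 12.39, 12.41 and 12.50 for Fbl, 12.11, 12.14 and 12.12 for Dkc1, 13.13, 13.12 and 13.10 for Nop56 and 12.18, 12.16 and 12.11 for Polr1b. For 38 of 40 members the interval lay within 0.5 log2 units of 0.

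Whether resistant and parental cells differed in their response at 24 h was tested as an interaction. No member and no gene was called (0% of all genes), and no member had an unadjusted p under 0.05, where 2.76% of all genes did in the higher and 5.08% in the lower direction. The smallest adjusted p of a member was 0.654. The difference was above 0 for 8 of 40 members (53.1% of all genes), with a median of -0.08, and of -0.05 without the fifth 0 h array. Rrp1b (-0.32, 95% interval -0.67 to 0.03), Noc3l (-0.29, -0.69 to 0.11), Tsr1, a late small-subunit factor (-0.28, -0.64 to 0.08), and Grwd1 (-0.26, -0.57 to 0.05) were furthest from 0. In that order they were -0.25, -0.20, -0.19 and -0.19 without the fifth 0 h array. The fibroblast markers differed in the same direction, with a median of -0.96, and their part in the result was not tested.

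Finally, treated lines were set against parental cells at the same time and dose, a comparison added after the values were seen, which uses none of the 0 h arrays. No member was called by limma (0.0803% of all genes were called higher and 0.567% lower), 10 of 40 had an unadjusted p under 0.05, all higher (5.8% of all genes were higher and 8.99% lower), and 40 of 40 were above 0 (57.9% of all genes), with a median of 0.12. Leaving out 1 array gave medians of 0.10 to 0.14, and the 10 became 5 without R1000. Of the 99 further ribosome biogenesis genes, 83 were above 0, with a median of 0.07. Ribosomal protein genes moved the same way here, with 47 of 59 above 0 and a median of 0.045, against a median of 0.02 for all genes. Rrp12, a factor in nuclear export of the small subunit, read 9.40, 9.38, 9.57, 9.45 and 9.47 in parental cells at 24 h and 9.72, 9.74 and 9.73 in R500, R1000 and R4000. The lines lay above all parental arrays for Rrp12, as for 13 members in all (5.04% of all genes), with a difference of 0.27 (SE 0.06, limma adjusted p = 0.0843). It was called without the third 24 h array (adjusted p = 0.0332). Nle1 (0.28, adjusted p = 0.192), Rcl1 (0.28, 0.154) and the U3 protein Rrp9 (0.26, 0.19) were next. On these arrays the fibroblast mean was 8.43 to 9.94 in parental cells and 8.01 to 8.32 in the lines, and its part in the difference was not tested.

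Genes with and without a CACGTG window were compared in description. In the untreated lines the 10 with the E-box had a median log2 difference of 0.23 (0.01 for Ltv1 to 0.46 for Grwd1) and the 25 without it 0.17 (-0.09 to 0.42). At 24 h in parental cells both medians were 0.09. The ranges overlapped in both comparisons.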

How the data were processed

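RNA of each culture was hybridised to an Affymetrix Mouse Gene ST 1.0 array. The authors applied robust multi-array averaging (justRMA of the affy package) and deposited log2 expression values, and mm9 is the genome build in the submitters' notes. RMA corrects background and gives all arrays the same intensity distribution, which hides any shift in the total amount of RNA per cell. Of 34760 probe sets, 21640 carried 1 gene symbol in the platform annotation, 1321 carried several, and those with several or none were left out. Genes with several probe sets (954, among them Fbl, Wdr12 and Ddx18) were represented by the brightest on average, leaving 19937 genes.

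Comparisons were fitted with limma 3.58.1 in R 4.3.3 (lmFit, eBayes) on the deposited log2 values, with Benjamini-Hochberg adjustment over all 19937 genes and a threshold of 0.05. One fit held all 23 parental arrays, another the untreated lines with the 0 h arrays, and the last, for treatment of the lines, 16 arrays with a term per line. The comparison of treated lines with parental cells at 24 h was added after the values were seen. Scripts were tested on simulated data. The genes named are those called, or otherwise the 4 furthest from 0 in a comparison, plus Ncl, Npm1, Fbl, Dkc1, Nop56, Polr1b and Myc, and the 4 other ribosome biogenesis genes of smallest p where any was called. Other genes are named as members of a count or role. The members and lists were chosen with earlier results of these data known. In the parental comparisons the p-values measure the spread between cultures of 1 lymphoma. Each resistant line has 1 array per condition. In comparisons with the lines the spread therefore includes differences among lines, and none between cultures of a line. The number of arrays limits precision. Alternatives changed the scaling, dim-gene filter, probe set rule, array weights, fibroblast covariate, pairing, arrays in the fit and single arrays left out.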

Additional observations from a re-analysis of the deposited data

Results flagged for a closer look

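In each parental group of 4 or 5 arrays, the highest or lowest array was examined for a gap to its neighbor that was large relative to the range of the group. Of 115 such checks on the mean of the 40 genes and on the named genes, 15 were past the critical value, and chance flags about 1 in 20 groups. Of the 15, 6 lay on the first 12 h array, which was lowest for the mean of the 40 genes (11.27, others 11.47 to 11.50), Grwd1 (9.86, others 10.35 to 10.45), Nat10 (10.86), Nhp2 (10.84), Nop58 (11.84) and Rcl1 (11.25). The fifth 0 h array was lowest for Pes1 (11.10) and Utp20 (9.95, others 10.34 to 10.42), and the first 0 h array was highest for Gar1 (12.56). At 6 h, Ncl was low on the first array (13.01) and Nop56 high on the third (13.13). At 24 h, Nop58 (11.84) and Tsr1 (10.88) were low on the first array and Ltv1 (10.45) on the second, and at 48 h Rcl1 was low on the second (11.54).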

How the results depend on the processing

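The count of members called at 24 h, 1 in the fit reported, was 0 after median centring and with the 2 groups fitted alone. It was 2 with the fibroblast covariate, with dim genes left out, with the mean of probe sets, with the title number as a replicate block, and without the fifth 0 h array and the 2 arrays of 24 h richest in fibroblast markers, a setting added after the data were seen. It was 3 with array weights and 4 with a replicate block on the number in the sample descriptions (limma adjusted p of 0.0161 for Noc3l, 0.0177 for Nop2, 0.021 for Nhp2 and 0.0296 for Utp20). Leaving out 1 array gave 0 to 4, the highest without the first 0 h array. Over all genes at 24 h, 867 of 1351 calls were higher, against 788 of 1817 after median centring and 703 of 1381 after housekeeping centring. In the untreated lines the count, 0 in the fit reported, was 1 with array weights (Grwd1, adjusted p = 0.0249) and 3 with all 30 arrays in the fit, and 0 whichever array was left out. The shares of all genes called under these alternatives are not given here, so the counts do not set the members apart. As a slope per step of resistance the median was 0.06, a different quantity. At 6, 12 and 48 h, between 24 h and 48 h, in treated lines and in the difference of responses the count was 0 under every alternative run. The members named as furthest from 0 kept their sign throughout. The median of the members did not. It ran from -0.01 to 0.06 at 6 h, from -0.04 to 0.06 at 12 h, from -0.04 to 0.06 between 24 h and 48 h, and from -0.03 to 0.05 in treated lines. Description numbers were not taken to pair the samples, and no label says what they mark. Deviations of same-numbered arrays correlated at 0.07 to 0.77, over 0.1 in 41 of 43 pairs, and 21 of 23 arrays correlated best with their own number. The median correlation was 0.40 for same-numbered pairs and -0.13 for differently numbered ones, and the fits reported do not take this into account.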
